A study of Homo sapiens with 6 samples.

Results

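The genes described here are the subunits of ion channels, the membrane pores that let potassium, sodium, calcium, chloride or mixed cations cross, in a comparison of prostate cancer cells selected in abiraterone with their parental line. The members are the rows of the deposited RNA-seq table whose gene symbol begins with the stem of a channel family (KCN, SCN, CACN, TRPC, TRPM, TRPV, CLCN, HCN, CHRN, GABR, GRIN, GRIA, GRIK, P2RX, PIEZO or ANO) and which GENCODE release 29 types as protein coding. Of the 44 rows that matched, 1 was an antisense RNA and 2, TRPM8 and CHRNA2, were left out by the rule, which leaves 41 members of the 6018 genes in the table and of its 2954 protein-coding genes. They were chosen by name, with earlier results of these data known, and were sorted into 5 ion classes.

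The abiraterone-selected subline, with 3 libraries, had been carried through rising abiraterone, starting at 1 µM and ending at 20 µM, for no less than 6 months, was then held in 5 µM drug, and is given as passage 15 to 18. Abiraterone blocks the steroid-synthesis enzyme CYP17A1. The parental C4-2B line, with 3 libraries, is an LNCaP-derived human prostate cancer line that was passaged alongside in 1% DMSO and is given as passage 0. Both lines grew with 10% serum, and the extraction protocol mentions 10 µM abiraterone in a wording that leaves the line or lines unclear. Passage number and cell line cannot be told apart, and the labels do not say whether libraries of 1 line came from separate cultures, so every p-value reflects no more than library-to-library spread, possibly technical.

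A single table of the authors' own DESeq2 comparison was analysed, with no value per library, so depth per library is unknown. Its header calls the sides C, for control, and V, for vehicle, and defines a positive log2 fold change as higher in C. Parental library titles contain the letter V, while the series text also calls the parental cells the control, and the header ties neither letter to a cell line. Each direction below therefore names the side, C or V, on which a gene was higher. Values written as a log2 fold change ± standard error (SE) are C over V as listed. A gene is called where its listed adjusted p, from the DESeq2 Wald test with Benjamini-Hochberg correction, was under 0.05. Levels on each side, in normalised counts, follow from a gene's listed mean and its fold change, with both sides taken as equally large, and carry no error of their own. Every gene in the table has p under 0.05 and lies at least 1.20 from zero on the log2 scale, so a channel that is not listed may have missed either limit and nothing is known here of its level.

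Potassium channels set the resting potential and end bursts of electrical activity, whereas voltage-gated sodium and calcium channels open on depolarisation and calcium entry feeds secretion, transcription and cell movement. Most such channels pair a pore-forming subunit with auxiliary subunits that change gating or traffic to the surface. Ligand-gated channels open to a transmitter or to extracellular ATP, and chloride channels of the CLCN and ANO families act at the surface, in endosomes and in lysosomes or move lipids between membrane leaflets. Epithelial cells of the prostate use several of them in fluid secretion and calcium signalling.

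Channel genes were called on both sides, and most were at low level. Of the 41 members, 33 were called (80.5%), 13 on the C side (31.7%) and 20 on the V side (48.8%). Among all listed protein-coding genes 92.6% were called, 31.6% being higher in C and 61.0% higher in V. Set against the annotation, 33 of 242 protein-coding genes that match the rule were listed and called, which is 13.6%, and over all protein-coding genes the share was 13.7%. Called members were higher in C in 39.4% of cases, and called protein-coding genes in 34.1%. The median log2 fold change of called members was -1.39, beside -1.55 over all called protein-coding genes. Against the annotation the share thus lay near the background, while among listed genes a smaller share of members was called, overall and on the V side; these differences were not tested. The median mean of called members was 19.3 normalised counts, against 75.0 over all called protein-coding genes, and 30 of the 33 had a mean under 100. TRPM8 and CHRNA2, left out by the rule and in no count of members, were both called higher in C, with means of 260 and 291. For 8 called members the lower side had a derived level under 1 normalised count, where the size of a fold change is poorly determined.

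**Figure D1:**
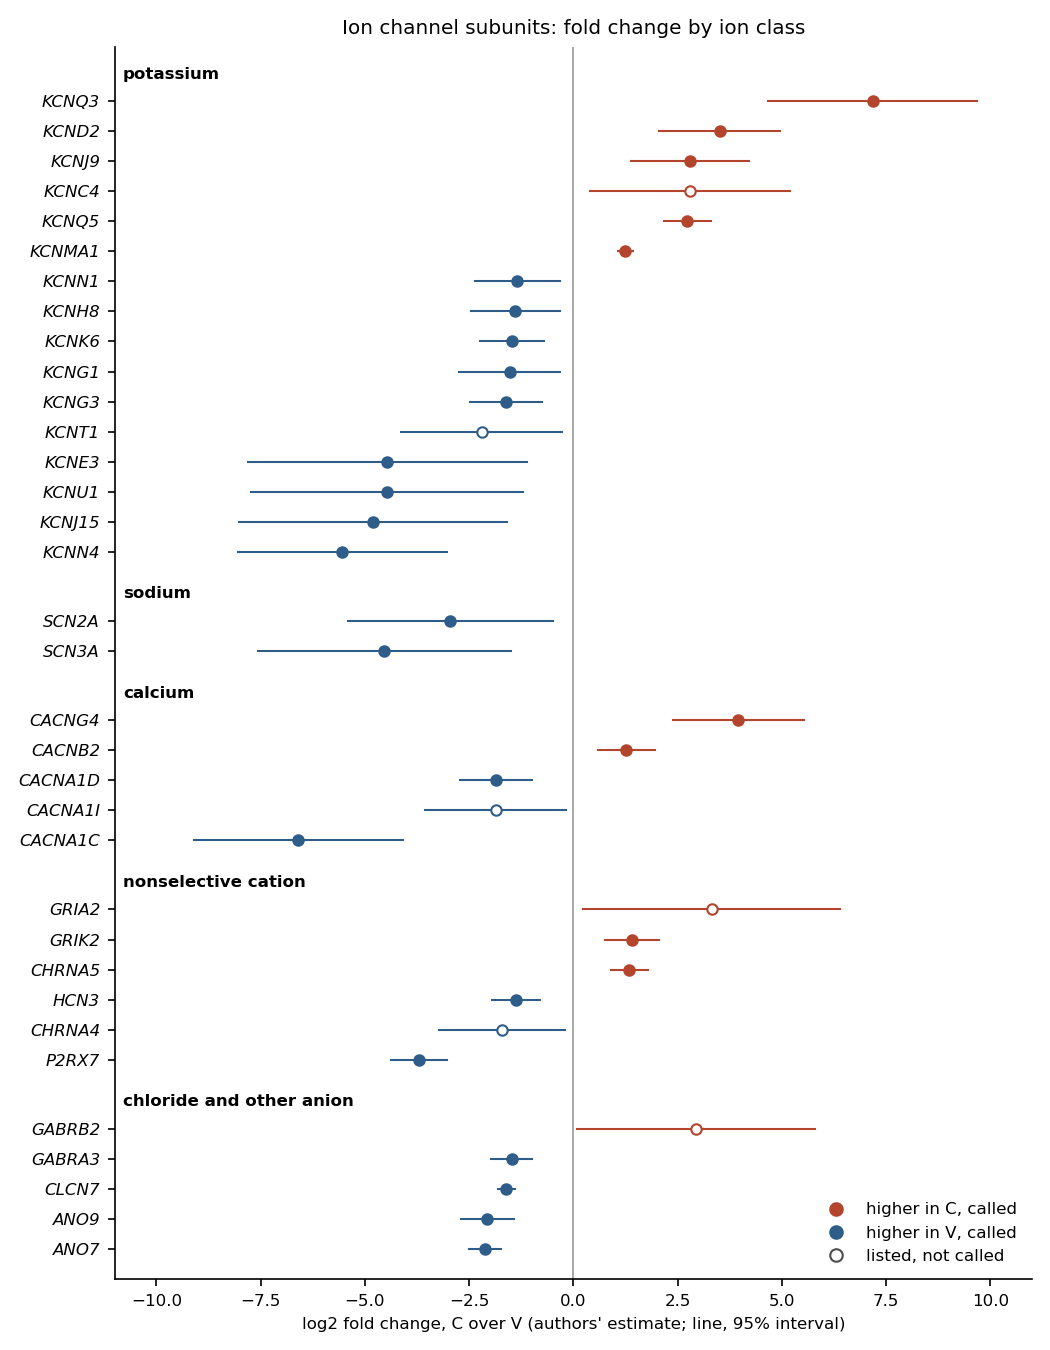
Log2 fold change of C over V for 34 of the 41 listed channel members, grouped by ion class; points are the authors' estimates, lines their 95% intervals and open points members that were not called. KCNQ3 and KCNQ5 lie on the C side and SCN2A and SCN3A on the V side, with intervals that are narrow for KCNMA1 and CLCN7 and wide for members at low level.

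The 2 called members with the smallest p on each side were KCNMA1 and KCNQ5, higher in C, and CLCN7 and P2RX7, higher in V. Their promoters are shown because these 4 genes have the smallest p on their side. Each run covers 250 bases before to 50 after a start taken from RefSeq (GRCh38.p14), 5′ to 3′ on the gene's strand. That start is not the start of the GENCODE gene span given further below. KCNMA1 is read at chr10:77637759-77638058 (minus strand), KCNQ5 at chr6:72621814-72622113 (plus strand), CLCN7 at chr16:1474979-1475278 (minus strand) and P2RX7 at chr12:121132626-121132925 (plus strand). The windows of KCNMA1, KCNQ5 and CLCN7 lie wholly inside the GENCODE spans of these genes, so they hold no base upstream of those spans. The P2RX7 window crosses the start of its GENCODE span. Capitals mark matches on either strand to the E-box CACGTG, the GC box GGGCGG, the TATA box TATAAA and the AP-1 site TGANTCA.
KCNMA1 promoter: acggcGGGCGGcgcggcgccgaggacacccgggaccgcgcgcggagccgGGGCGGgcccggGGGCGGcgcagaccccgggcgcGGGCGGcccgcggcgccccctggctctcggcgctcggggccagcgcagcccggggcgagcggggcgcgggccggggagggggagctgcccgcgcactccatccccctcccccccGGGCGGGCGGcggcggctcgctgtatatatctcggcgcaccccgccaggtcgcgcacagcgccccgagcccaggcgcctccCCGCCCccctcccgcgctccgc
KCNQ5 promoter: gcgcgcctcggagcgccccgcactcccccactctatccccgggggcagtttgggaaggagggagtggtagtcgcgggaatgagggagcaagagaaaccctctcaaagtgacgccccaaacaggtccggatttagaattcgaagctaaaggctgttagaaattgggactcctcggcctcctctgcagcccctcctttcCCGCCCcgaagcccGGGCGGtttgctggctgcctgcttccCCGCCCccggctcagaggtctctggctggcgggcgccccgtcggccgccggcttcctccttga
CLCN7 promoter: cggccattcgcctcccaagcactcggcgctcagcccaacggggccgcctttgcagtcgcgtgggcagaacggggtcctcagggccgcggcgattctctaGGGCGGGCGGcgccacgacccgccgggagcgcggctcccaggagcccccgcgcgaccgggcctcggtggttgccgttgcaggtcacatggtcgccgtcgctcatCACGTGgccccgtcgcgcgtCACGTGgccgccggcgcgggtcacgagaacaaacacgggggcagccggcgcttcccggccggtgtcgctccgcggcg
P2RX7 promoter: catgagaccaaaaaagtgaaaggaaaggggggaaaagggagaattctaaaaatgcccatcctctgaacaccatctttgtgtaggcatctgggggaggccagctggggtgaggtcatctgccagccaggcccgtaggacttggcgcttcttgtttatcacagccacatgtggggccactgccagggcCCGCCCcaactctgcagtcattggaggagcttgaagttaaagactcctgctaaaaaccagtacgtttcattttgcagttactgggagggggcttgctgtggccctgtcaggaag
The CLCN7 window held 2 copies of CACGTG and the other windows shown held none. CACGTG is the core of the element bound by TFEB, the regulator of lysosomal genes, and CLCN7 encodes a lysosomal transporter. Over all 35116 promoters of this length 7.26% held CACGTG, and it was present in 4 of the 24 members that have a promoter there, CACNA1I, CLCN7, KCND2 and KCNN4. The GC box occurred in 18 of the 24 and in 45.0% of all promoters. KCNMA1 held 7 matches to it, of which some overlap, KCNQ5 held 3, CLCN7 held 2 and P2RX7 held 1. In none of the 24 was TATAAA found, beside 11.5% of all promoters, and TGANTCA occurred in KCNJ15 alone, beside 7.71%. Base composition differed widely, from 85.7% G or C in the KCNMA1 window to 53.3% in that of P2RX7. Members were counted with 1 promoter each, whereas the 35116 promoters were limited neither to 1 per gene nor to protein-coding genes. The shares are therefore not like for like, and their differences were not tested. A match describes letters only and does not show that a factor binds.

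Potassium channels were the largest class, with 18 listed members of 97 annotated genes. Of these, 16 were called, with 7 on the C side and 9 on the V side. For this and the other ion classes the background is 92.6% of listed protein-coding genes called. Of called protein-coding genes, 65.9% were higher in V. No class was tested against these shares. The 7 higher in C were all pore-forming subunits, whereas the 9 higher in V included both modifying subunits listed, KCNG1 and KCNG3, and the auxiliary subunit KCNE3.

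KCNQ3 and KCNQ5, which encode subunits of the M-current that holds neurons below firing threshold, were both called higher in C. KCNQ5, at chr6:72621792-73198851 (GENCODE release 29, GRCh38), had a derived level of 101 normalised counts in C and 15.1 in V. Per the authors' deposited table its log2 fold change was 2.73 ± 0.29 (SE), a 6.66-fold difference, with an adjusted p of 3.46e-20 by the DESeq2 Wald test. KCNQ3 had a derived 21.6 in C and 0.148 in V. At so low a level in V, the 7.19 ± 1.28 listed per the authors' deposited table fixes a direction better than a size. In V both stood at 15.1 or less. An exon of KCNQ5 overlaps that of a listed noncoding gene on the opposite strand, as does an exon of CHRNA4. The protocol names a stranded kit beside another kit without assigning them, so reads of such pairs may not be told apart. In all, 16 members have an exon that overlaps an exon of another gene, 3 of them one of a protein-coding gene. For KCNJ15 and SCN2A an overlapping exon lies on the same strand, where strand cannot separate the reads.

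KCNMA1, the pore of the large-conductance calcium-activated potassium channel (BK), was the most abundant member by count. Derived levels came to 1215 normalised counts in C against 513 in V, a 2.37-fold difference. Per the authors' deposited table the log2 fold change was 1.24 ± 0.09 with an adjusted p of 9.66e-41 (DESeq2 Wald test), and its 95% interval ran from 1.07 to 1.42. The gene spans chr10:76869601-77638369 on GRCh38. LRRC26, an auxiliary subunit that lets BK channels of secretory epithelium open at negative voltage, went the other way, with a derived 79.9 in C and 208.7 in V and a log2 fold change of -1.39 ± 0.46 per the authors' deposited table (adjusted p = 0.00756, DESeq2 Wald test). LRRC52, which serves the sperm channel KCNU1 in the same manner, was higher in V as well (-4.28 ± 1.72 per the authors' deposited table), as was KCNU1 itself (-4.47 ± 1.67). Both derived C levels were under 1, at 0.155 for LRRC52 and 0.156 for KCNU1, against 3.02 and 3.46 in V. The BK pore and its LRRC26 partner were therefore on opposite sides, while the KCNU1 pair shared the V side at levels near detection. LRRC26, at a mean of 144, had an SE of 0.46, beside 0.20 for ANO7 at a mean of 119. The size of the LRRC26 difference was thus measured with less precision than its level alone would give.

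KCND2 and KCNJ9 were also called higher in C. KCND2, of the A-type current, had a derived level of 33.1 in C and 2.92 in V (3.51 ± 0.74 per the authors' deposited table). KCNJ9, a G-protein-gated inward rectifier, had 10.9 in C and 1.56 in V (2.80 ± 0.72 per the authors' deposited table). KCNC4, a fast voltage-gated channel, had derived levels of 86.9 in C and 12.5 in V, larger than those of several called genes, yet its adjusted p per the authors' deposited table was 0.051 by the DESeq2 Wald test and it was not called.

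The V side mixed calcium-activated, background and voltage-gated pores with silent and auxiliary subunits. KCNN4, the intermediate-conductance calcium-activated channel known from lymphocytes, red cells and secretory epithelium, had a derived level of 0.36 in C and 16.8 in V (-5.54 ± 1.28 per the authors' deposited table), so its size too is poorly determined. KCNN1, a small-conductance relative, had 10.5 in C and 26.6 in V (-1.34 ± 0.52 per the authors' deposited table). The background tandem-pore channel KCNK6 stood at 10.7 in C and 29.5 in V (-1.46 ± 0.39 per the authors' deposited table), and the voltage-gated KCNH8 at 10.6 in C and 27.9 in V (-1.39 ± 0.54 per the authors' deposited table). These 3 had closely similar levels, from 10.5 to 10.7 in C and from 26.6 to 29.5 in V. KCNG1 and KCNG3 encode silent subunits that form no channel alone. Their derived levels were 5.55 and 9.02 in C against 16.0 and 27.8 in V, with fold changes of -1.53 ± 0.61 and -1.62 ± 0.44 per the authors' deposited table. KCNJ15, an inward rectifier, and KCNE3, an auxiliary subunit known to hold KCNQ1 open in epithelium, had derived C levels of 0.158 and 0.156 and V levels of 4.43 and 3.43. KCNQ1 was not listed. The sodium-activated channel KCNT1 was listed but not called (adjusted p = 0.0581 per the authors' deposited table, DESeq2 Wald test).

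The 3 called voltage-gated sodium channel genes were all higher in V and all weak. Of all called protein-coding genes 65.9% were higher in V, and the difference was not tested. Of 14 annotated genes, 4 were listed and 3 were called, 1 of them with an adjusted p under 0.01. SCN2A, a pore of brain neurons, had a derived level of 5.29 in C and 40.8 in V, for a log2 fold change of -2.95 ± 1.25 per the authors' deposited table and an adjusted p of 0.0432 by the DESeq2 Wald test. SCN3A, its embryonic relative, had 0.171 in C and 3.96 in V (-4.54 ± 1.55 per the authors' deposited table). These genes are neighbours on chromosome 2 in GENCODE release 29, on opposite strands, at chr2:165194993-165392310 for SCN2A and chr2:165087522-165204067 for SCN3A, and their gene bodies overlap by 9.07 kb at the 5′ ends.

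Calcium channel pores were higher in V and calcium channel auxiliary subunits higher in C. Of 26 annotated genes 5 were listed and 4 were called, 2 on each side. CACNA1D, an L-type pore, had a derived level of 11.9 in C and 43.1 in V, a 3.62-fold difference (-1.86 ± 0.44 per the authors' deposited table, adjusted p = 0.000112 by the DESeq2 Wald test). CACNA1C, the L-type pore of heart and smooth muscle, had 0.165 in C and 16.0 in V (-6.60 ± 1.28 per the authors' deposited table). CACNB2, a beta subunit that brings such pores to the surface, had 40.7 in C and 16.9 in V (1.27 ± 0.34 per the authors' deposited table). CACNG4, a gamma-family protein best known for escorting AMPA receptors, had 13.6 in C and 0.873 in V (3.96 ± 0.81 per the authors' deposited table). Whether pores and auxiliary subunits differ as groups was not tested, since each side rests on 2 genes. The T-type pore CACNA1I was listed without being called (adjusted p = 0.0673 per the authors' deposited table, DESeq2 Wald test). An exon of CACNA1D overlaps one of CHDH on the opposite strand.

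Nonselective cation channels gave 8 listed members of 67 annotated genes, of which 5 were called, with 3 on the C side and 2 on the V side. P2RX7, the ATP-gated channel that drives inflammasome activation in macrophages, combined a large difference with a small error. Its derived level was 9.77 in C and 127 in V, a 13.0-fold difference, and its log2 fold change per the authors' deposited table was -3.70 ± 0.34 with an adjusted p of 1.32e-26 (DESeq2 Wald test). The gene lies at chr12:121132819-121188032 on GRCh38. HCN3, a pacemaker channel, had 50.1 in C and 130.3 in V (-1.38 ± 0.29 per the authors' deposited table). CHRNA5, a nicotinic receptor subunit that needs partners to form a channel, had 98.5 in C and 38.9 in V (1.34 ± 0.23 per the authors' deposited table, adjusted p = 2.6e-08 by the DESeq2 Wald test). GRIK2, a kainate receptor subunit, had 40.8 in C and 15.5 in V (1.40 ± 0.33 per the authors' deposited table). Its auxiliary subunit NETO1 lay on the same side at a far higher level, with a derived 1089 in C and 369.6 in V (1.56 ± 0.08 per the authors' deposited table). Exons of CHRNA5 and HCN3 overlap exons of CHRNA3 and PKLR on the opposite strands.

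The members held no TRPM, TRPV or mechanosensitive channel gene. None of 7 TRPM genes, 6 TRPV genes and 2 PIEZO genes of the annotation was listed after the rule's exclusions. TRPV6, TRPM4 and PIEZO1, often studied in prostate cancer, were among those not listed, as were KCNH2 and ANO1. No NMDA receptor gene of the GRIN stem and no KCNA gene was listed, of 7 and 8 annotated. GRIA2, the AMPA receptor subunit that limits calcium entry, was listed without a call (adjusted p = 0.075 per the authors' deposited table, DESeq2 Wald test) at derived levels of 89.0 in C and 8.92 in V, and CHRNA4 likewise (adjusted p = 0.0585 per the authors' deposited table, same test) at 3.16 in C and 10.4 in V.

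Among chloride and other anion channels 6 of 38 annotated genes were listed and 5 were called, with 1 on the C side and 4 on the V side. CLCN7, the lysosomal chloride-proton exchanger, was abundant and precisely measured. Its derived level was 264 in C and 802 in V, a 3.04-fold difference, with a log2 fold change of -1.61 ± 0.10 per the authors' deposited table, an adjusted p of 1.66e-52 by the DESeq2 Wald test and a 95% interval from -1.81 to -1.40. It spans chr16:1444934-1475580 on GRCh38. ANO7, an anoctamin known for its expression in prostate epithelium, had 44.4 in C and 194 in V (-2.13 ± 0.20 per the authors' deposited table, adjusted p = 2.69e-26 by the DESeq2 Wald test). ANO9, an epithelial relative, had 23.8 in C and 99.3 in V (-2.06 ± 0.33 per the authors' deposited table). The 2 anoctamins were 4.36 and 4.18 times as high in V as in C, and were the 2 listed of 10 annotated ANO genes.

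GABA-A receptor subunits form inhibitory chloride channels in neurons. GABRA3 had a derived 30.7 in C and 85.7 in V (-1.48 ± 0.25 per the authors' deposited table). GABRB2 had 91.8 in C and 11.9 in V but an adjusted p of 0.0904 per the authors' deposited table (same test), and was not called. Its gene spans chr5:161288429-161549044 in GENCODE release 29 (GRCh38), while GABRA3 is on the X chromosome.

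**Figure D2:**
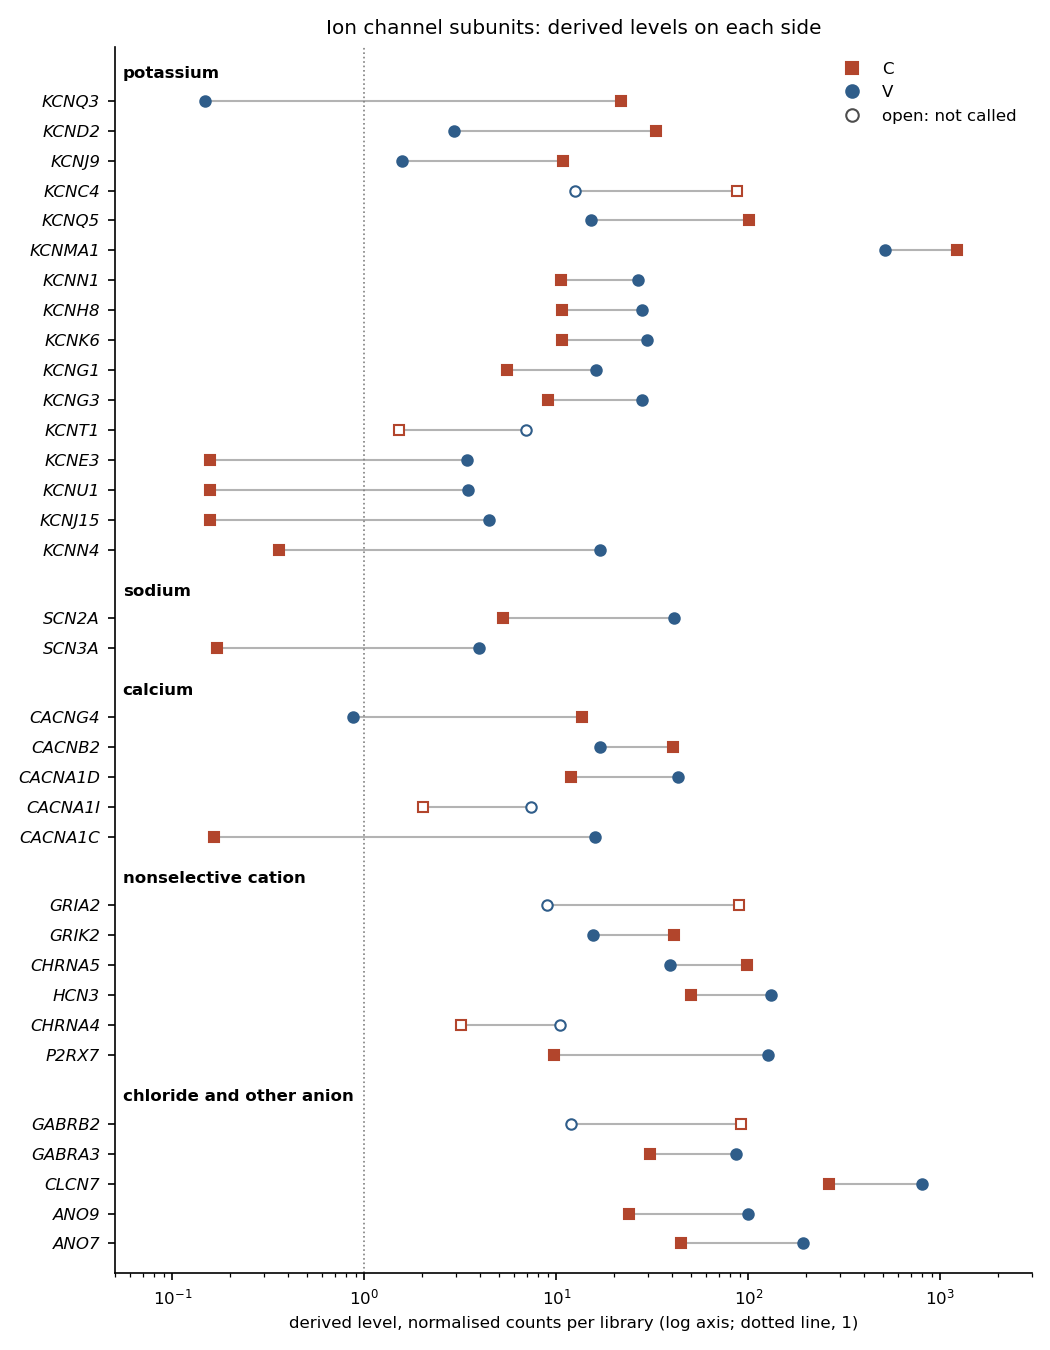
Derived levels of 34 of the 41 members in C (squares) and V (circles) on a log axis in normalised counts, joined by a line per gene; open symbols mark members that were not called and the dotted line marks 1 normalised count. KCNMA1 at 1215 in C and CLCN7 at 802 in V stand far to the right of the other members, and the lowest symbols, at 0.148 to 0.171, belong to genes seen almost on 1 side alone.

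Scaled per kilobase of exon, the order of levels changed. On this scale, derived levels over the union of GENCODE release 29 exons, CLCN7 was the highest member on the V side with 32.5 per kb in C and 98.8 per kb in V, and KCNMA1 was the highest on the C side with 34.1 per kb in C and 14.4 per kb in V. CHRNA5 followed CLCN7 in C, with 27.2 per kb in C and 10.7 per kb in V. On the V side ANO7 came second, with 7.79 per kb in C and 34.0 per kb in V, then HCN3, with 12.1 per kb in C and 31.6 per kb in V, and P2RX7, with 1.76 per kb in C and 22.9 per kb in V. The union for KCNMA1, 35.6 kb, counts many alternative exons, whereas that for CLCN7 is 8.12 kb, so a count over fewer exons would raise KCNMA1 more. No error can be attached to these levels, so neighbours in the order cannot be separated.

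Several channel genes had far larger standard errors than other genes at the same level. Each member's SE was set beside the median SE of the 50 listed protein-coding genes nearest to it in mean and in lower level. For 6 of the 41 members the ratio was at least 2, among them GABRB2 (4.22), GRIA2 (3.68), KCNC4 (3.61) and SCN2A (2.40). Of these 6 members, 5 were higher in C, and 2 were called. In DESeq2 an SE grows with low counts and with disagreement between libraries of a side; no library value is available to show which libraries differed. Members with large errors thus included 4 of the 8 that missed the threshold. The other 35 had ratios from 0.702 to 1.84. Among the other 2911 protein-coding genes 3.71% had a ratio of at least 2, 58 of them higher in C and 50 higher in V. That was 5.77% of the other genes higher in C and 2.62% of those higher in V. The difference in direction was not tested.

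Markers of other cell types were listed on both sides. Of 10 neuronal and neuroendocrine markers 7 were not listed and 3 were, SNAP25, SRRM4 and SCG5, all called higher in C, with a summed derived level of 1874 in C and 56.1 in V. SRRM4, a splicing factor of neural exons, made up most of that sum, at 1718 in C and 51.5 in V, and its SE was 9.15 times that of genes of like level; for SNAP25 the ratio was 2.11. Their part in the channel results was not tested. Of the 5 leukocyte markers, PTPRC, CD14 and CD68 were listed, with a summed derived level of 1.24 in C and 44.2 in V. PTPRC made up most of the V sum, at 35.7, and CD68 was not called (adjusted p = 0.0976, DESeq2 Wald test). PECAM1, the 1 endothelial marker listed of 4, had 0.165 in C and 14.9 in V. P2RX7 and KCNN4, which leukocytes also express, lay on that side, and the part of such markers in their values was not tested. Of 6 fibroblast and muscle markers 3 were listed, ACTA2 and COL1A1 called higher in V and PDGFRB called higher in C, with a summed derived level of 91.0 in C and 328.7 in V. CACNA1C lay on the V side as well, and the part of such markers in its value was not tested. The 9 luminal prostate markers had 3 listed genes, KLK2 and KLK3 higher in C and KRT8 higher in V, with a summed derived level of 19332 in C and 7545 in V.

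**Figure D3:**
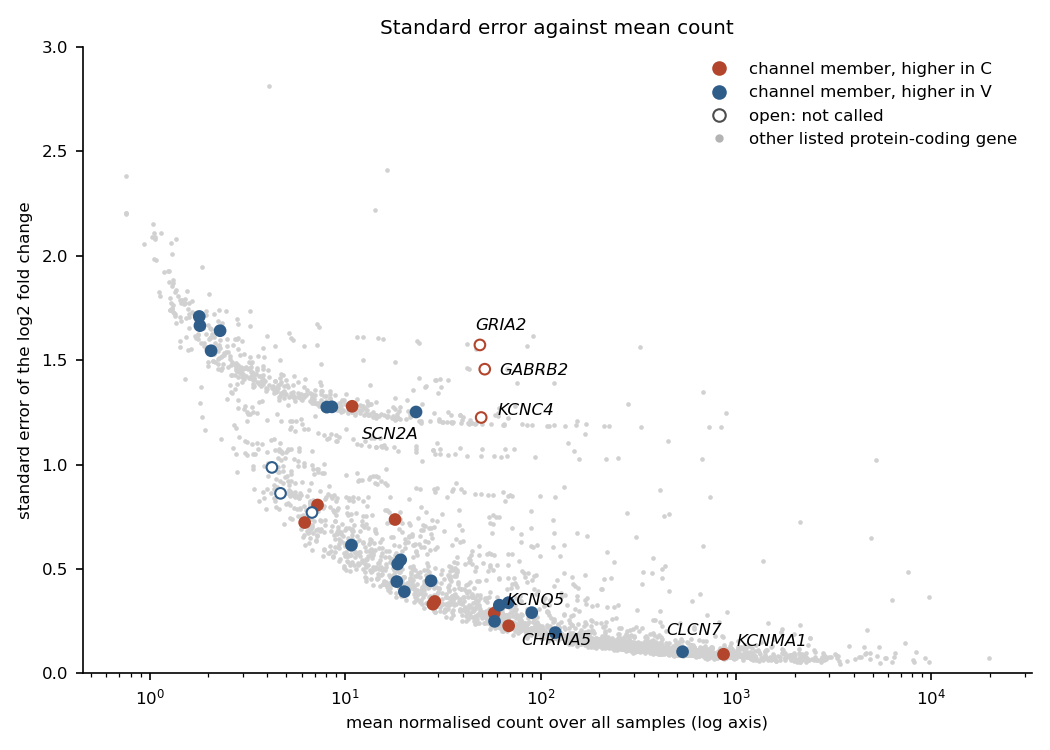
Standard error of the log2 fold change against the mean normalised count (log axis) for 34 of the 41 channel members, coloured by direction and open where not called, over all other listed protein-coding genes in grey. GRIA2, GABRB2 and KCNC4 lie well above the dense lower band of genes at their mean, while KCNMA1, CLCN7, KCNQ5 and CHRNA5 lie within it.

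Genes of ion transport outside the family stems were listed on both sides, most of them higher in V. Of 95 genes in 6 lists of stores, pumps, other channels and partners, 21 were listed and all 21 were called, 3 being higher in C and 18 in V. Of the 95 genes 22.1% were thus called, beside 13.7% of all annotated protein-coding genes, and 92.6% of all listed ones were called. Of the 21 called genes 85.7% were higher in V, beside 65.9% of called protein-coding genes. These differences were not tested. The 6 lists were chosen with earlier results of these data known, so the shares describe these lists only. The median log2 fold change of the 21 was -1.94, beside -1.55 over all called protein-coding genes. Genes of the epithelial sodium channel (ENaC) lay on 1 side. All 4 SCNN1 genes were called higher in V, and no ASIC gene was listed. SCNN1A, the alpha subunit, had a derived level of 346 in C and 953 in V (-1.46 ± 0.08 per the authors' deposited table). SCNN1G, the gamma subunit, had 1.18 in C and 230.1 in V (-7.61 ± 0.74 per the authors' deposited table). SCNN1B, the beta subunit, had 0.453 in C and 14.0 in V, and SCNN1D 20.5 in C and 57.5 in V.

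Genes of calcium stores and store-operated entry were called for 4 of 22, each of them higher in V. ITPR2, a receptor that releases calcium from the endoplasmic reticulum, had a derived 232 in C and 650.5 in V (-1.49 ± 0.13 per the authors' deposited table). STIM2, the sensor of that store, had 133 in C and 380.1 in V (-1.52 ± 0.14 per the authors' deposited table), and ORAI3, a surface channel that such sensors open, had 35.0 in C and 108 in V (-1.62 ± 0.25 per the authors' deposited table). The pump gene ATP2A3, which refills the store, stood at 3.21 in C and 16.8 in V. Of the sodium pump list 2 of 11 genes were called, both higher in V, the beta subunit ATP1B1 with 179 in C and 691 in V (-1.95 ± 0.10 per the authors' deposited table) and the pump modulator FXYD3 with 3.14 in C and 66.8 in V (-4.41 ± 0.51 per the authors' deposited table).

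The other anion channel list had 5 called members of 20. CLIC4, an intracellular channel protein, had a derived 362 in C and 926 in V (-1.35 ± 0.16 per the authors' deposited table), and BEST1, a calcium-activated chloride channel, had 23.7 in C and 95.3 in V (-2.01 ± 0.25 per the authors' deposited table). CLIC2 and CLIC5 were higher in V at low levels. LRRC8C, a subunit of the volume-regulated anion channel, was the single member higher in C, at 71.0 in C and 23.2 in V (1.61 ± 0.32 per the authors' deposited table). In the other cation channel list 2 of 19 genes were called, the lysosomal channel MCOLN2 higher in C at 40.4 in C and 17.2 in V (1.23 ± 0.30 per the authors' deposited table) and TMC8 higher in V at 3.56 in C and 40.8 in V (-3.52 ± 0.51 per the authors' deposited table). Besides LRRC26, LRRC52 and NETO1, the partner list of 14 held 1 more called gene, the AMPA receptor auxiliary subunit CNIH3, higher in V at 4.65 in C and 17.9 in V (-1.94 ± 0.58 per the authors' deposited table).

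**Figure D4:**
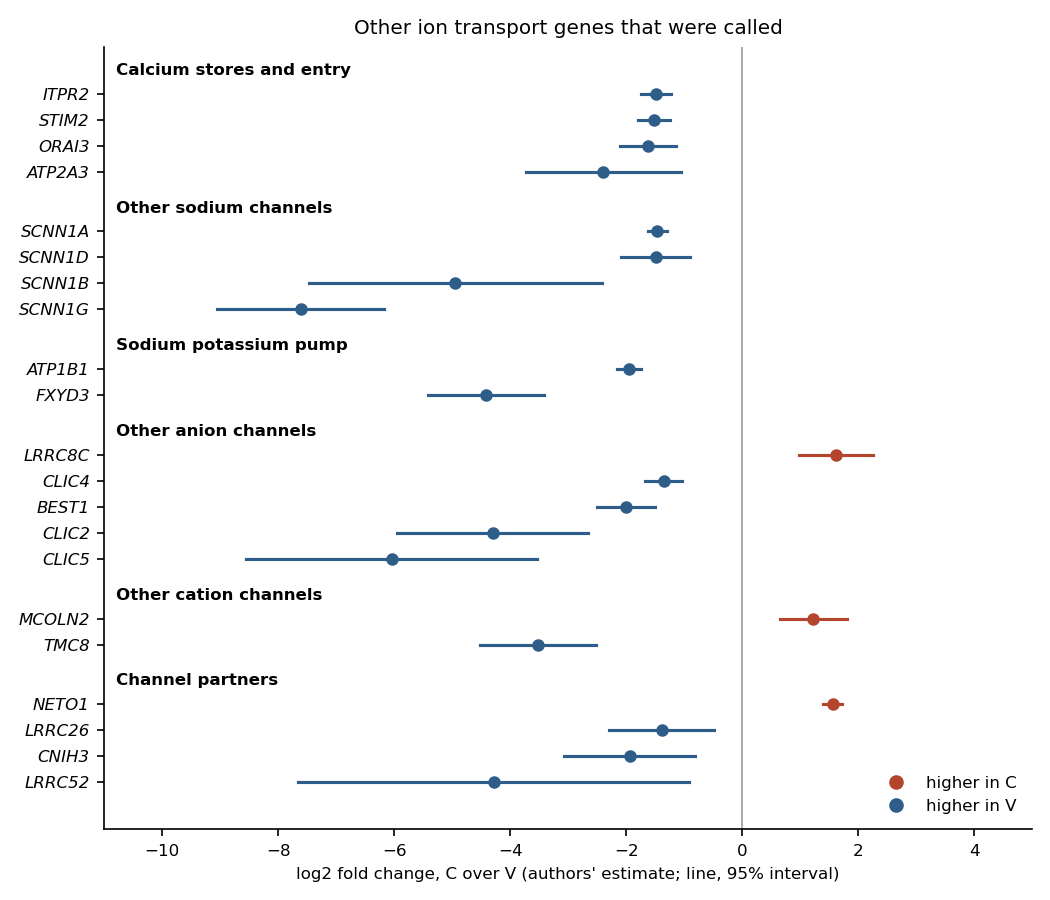
Log2 fold change of C over V with 95% interval for the 21 called genes of the 6 further ion transport lists, by list. All SCNN1 genes and all store and entry genes lie on the V side, and 3 genes, LRRC8C, MCOLN2 and NETO1, lie on the C side.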

How the data were processed

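RNA from 6 libraries was read as 50 bp single ends from 1 µg of total RNA, per the labels' protocols, and 1 table of the authors' DESeq2 comparison was used. The mean normalised count is a signal value the authors computed over all samples, per the file headers. Fold changes are on the log2 scale, C over V, from a maximum likelihood fit by the authors. The authors' standard errors and Wald statistics are deposited as score columns. The p-value and the adjusted p-value are the authors', per the file headers. The submitters' processing notes name FastQC and Cufflinks 2.2.1 with no role; for aligner, counter and build, nothing is given in the sources used here.

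Of the 6018 identifiers, 5935 are in GENCODE release 29 (GRCh38), which gave gene type, position and exon length and need not be the authors' annotation. For 4 genes an adjusted p of 0 beside a larger p was read as not given. All 5980 p-values above 1e-290 recomputed from the Wald statistic lay within 1% of those listed. No test was run here: values of the authors' comparison are described as listed. The members and lists were chosen with earlier results of these data known. Named were, per ion class, up to 6 called members with the smallest p among those reaching 50 normalised counts on the higher side, up to 2 with the largest fold change, and a fixed set of 10 genes; the other members were then added in full or as counts. Protein stretches that the rule foresaw were not used here, and the promoters shown were chosen after the values were seen. Genes of like level were the 50 nearest in log2 mean and log2 lower level; this step and the derived levels were tested on simulated data. Counts cover all 41 members, but some members are not reported here one by one. Python 3.11.15 with pandas 2.3.3 was used.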

Additional observations from a re-analysis of the deposited data

How the results depend on the processing

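No paired analysis was possible because the table holds no value per library, and leaving out a replicate could not be run for the same reason. The main counts were 33 called members, 13 higher in C and 20 higher in V. An adjusted p under 0.01 left 23 members, 10 higher in C and 13 higher in V. They were 10 potassium, 1 sodium, 4 calcium, 4 nonselective cation and 4 anion members. A log2 fold change of 2 or more in size left 18 members, 8 higher in C and 10 higher in V, with a median of -2.09. They were 9 potassium, 2 sodium, 2 calcium, 2 nonselective cation and 3 anion members, and 9 other ion transport genes were left. A 95% interval beyond 1 left 17 members, 7 higher in C and 10 higher in V, with a median of -2.06, and 10 potassium, 1 sodium, 2 calcium, 1 nonselective cation and 3 anion members. A mean of at least 10 left 23 members, 10 higher in C and 13 higher in V. They were 11 potassium, 1 sodium, 2 calcium, 4 nonselective cation and 5 anion members. With a mean of at least 100, 3 members were left, 1 higher in C and 2 higher in V (1 potassium, 0 sodium, 0 calcium, 0 nonselective cation and 2 anion), and 8 other ion transport genes. Fewer genes pass a stricter limit by construction, and a cut on the size of the fold change also shifts the median by construction. Each alternative filters the same listed fold changes, so it bears on counts and not on any gene's direction. Over all listed protein-coding genes the shares were 82.8%, 48.3%, 71.9%, 76.7% and 42.1% in the same order. The shares of listed protein-coding genes that passed and were higher in C were 28.4%, 12.4%, 22.9%, 27.6% and 15.6%. Leaving out members whose SE was at least 2 times that of genes of like level, an alternative chosen after seeing the data, left 31, 12 higher in C and 19 higher in V. Removing symbols that are no channel subunits changed no count, since none was listed. ANO7 alone stayed called under each of the 6 planned settings. Its mean of 119 and log2 fold change of -2.13 lie close to the limits of 100 and of 2 in size. KCNMA1 (1.24) and CLCN7 (-1.61) failed only the limit on the fold change. The result thus follows from where the limits lie and does not rank the genes by reliability. Depth limits most members: 30 of 33 called members had a mean under 100.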
